A study of Homo sapiens with 4 samples.

Results

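The genes described here are TRIB1, TRIB3, CEBPB, NR4A1 and JUND, in LP-1 cells labelled as HRP2 knockdown. They are a small set of tribbles pseudokinase, CCAAT/enhancer-binding and immediate early genes. LP-1 is an established human multiple myeloma line carrying the t(4;14) translocation, given in the labels as a B lymphoblast. Each group had 2 RNA sequencing libraries: cells with a lentiviral guide RNA against HRP2 (HRP2 knockdown) and cells with a non-target control construct, all grown in the same serum-containing medium. The labels do not say whether either population was 1 clone, whether the guide led to cutting or to repression of the gene, or whether the 2 libraries of each group were grown apart. If they were not, a Q value could reflect technical variation alone. The measurements were the authors' deposited log2 fold changes of knockdown over control with their Q values, for genes and for transcripts. Both tables held only features with a Q value under 0.05, and such a feature is termed called below. Per-library values were not analysed here, so no value carries an SD and the depth behind it is unknown. The 5 genes were picked by symbol from the 684 called genes, after having been chosen by their values in this same comparison. Their changes are therefore given as a description, without a test. Their number called, 5 of 5, stands beside a background of 2.81% of the 24237 mRNA genes that the submitters list, a denominator used because the number tested is not given.

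Tribbles proteins are pseudokinases. They act as scaffolds that bring substrates, C/EBP factors among them, to the COP1 ubiquitin ligase, and they bind kinases of the MAPK and AKT pathways. Immediate early genes are transcribed within minutes of a growth factor or stress signal from factors already present in the cell, and many of their products are transcription factors, such as the AP-1 subunits and the NR4A orphan nuclear receptors. CEBPB and TRIB3 are also induced in the integrated stress response, where ATF4 and CHOP drive transcription when the endoplasmic reticulum or amino acid supply is disturbed, a pathway of interest in plasma cells because of their heavy secretory load.

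All 5 genes were lower in the knockdown, and each fell by about 1 log2 unit or more in the authors' deposited table. TRIB1 was left at 23.1% of the control level, NR4A1 at 31.4%, TRIB3 at 32.8%, CEBPB at 41.1% and JUND at 49.9%. Calls of this kind, lower at a Q value under 0.05, made up 1.32% of the listed mRNA genes, and calls lower by at least 1 log2 unit made up 0.371%. Nothing is read from these shares, because the genes were chosen on this contrast. The libraries are of bulk RNA, in which fewer cells expressing a gene and less of its RNA in each cell cannot be told apart. The median log2 fold change of the 5 genes was -1.61, beside -0.78 for all 323 lower genes, 0.66 for the 361 higher genes and 0.47 for all called genes. HDGFL2, which encodes HRP2, was at 38.8% of control in the same deposited table. TRIB1, NR4A1 and TRIB3 lay below that RNA in relative level, and CEBPB and JUND above it. With cutting or repression not stated, the HDGFL2 RNA level may not measure how far HRP2 protein was depleted.

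The order by size of change was not the order by Q value. TRIB1 had the 12th lowest log2 fold change of the 684 genes but only the 582nd smallest Q value (0.0389, where the largest in the table was 0.0495). JUND, with the smallest change of the set (89th lowest), had the 26th smallest Q value. TRIB3 combined both, with the 27th lowest log2 fold change and the 12th smallest Q value, the 2nd smallest among lower genes. Of the 14 called genes with a log2 fold change of -2 or below, 6 had a Q value under 0.01, and TRIB1 was among the other 8. With no standard errors in the deposited table, differences in size among the 5 genes were not tested.

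**Figure D1:**
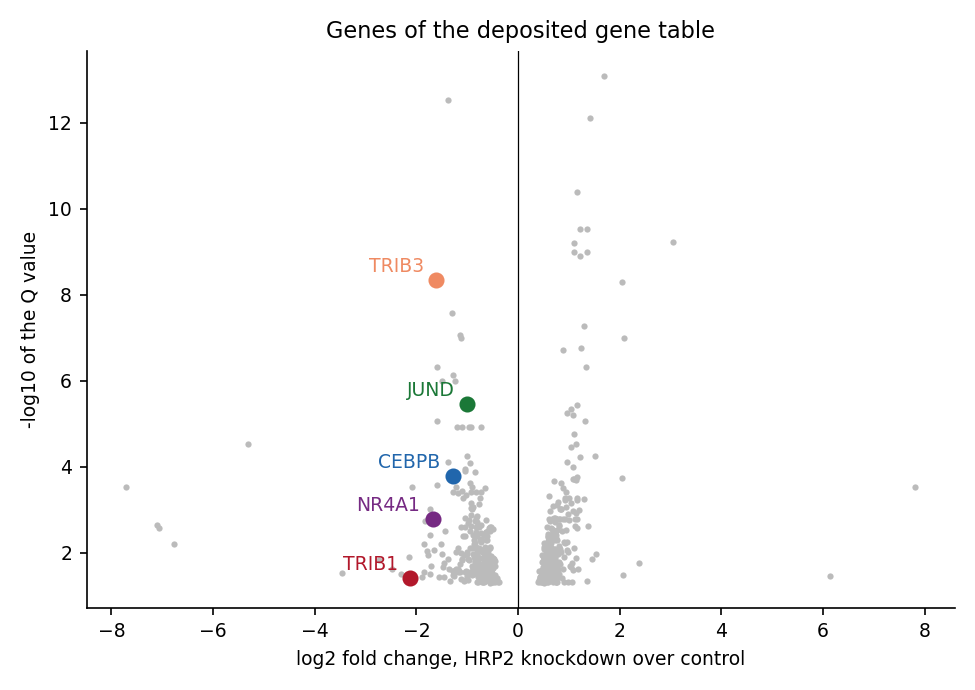
Each point is 1 of the 684 genes of the authors' deposited table, placed by its log2 fold change of HRP2 knockdown over control (x axis) and the -log10 of its Q value (y axis). The 5 coloured genes are all left of 0. Among them TRIB1 lies lowest on the y axis (Q = 0.0389) although its change is the largest of the 5, and TRIB3 lies highest (Q = 4.67e-09).

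TRIB1 (gene ID 10221) encodes the tribbles member that, with COP1, directs degradation of the myeloid factor C/EBP alpha and binds the MAPK kinase MEK1. Its log2 fold change was -2.12 with a Q value of 0.0389 in the authors' deposited table. TRIB3 (gene ID 57761) encodes the stress-inducible member, a target of ATF4 and CHOP that is known for binding AKT. Its log2 fold change was -1.61 with a Q value of 4.67e-09 in the same table. The third tribbles gene, TRIB2, and the related STK40 were listed but not called, so their difference is not known. Thus 2 of 4 genes of the family were called, both lower, beside 2.81% called and 1.32% called lower of the listed mRNA genes. Both were chosen on this contrast, so nothing is read from that count. None of the 7 genes of the COP1 ligase (COP1, DET1, DDA1, DDB1, CUL4A, CUL4B and RBX1) was called by the authors' test, for which neither a name nor unadjusted p-values are given in the sources used here.

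The transcript table added 5 values for the tribbles genes, all lower. For TRIB1 these were NM_001282985.1 at -1.93 (Q = 0.0136), XR_428373.3 at -2.43 (Q = 0.00388) and NM_025195.3 at -9.60 (Q = 0.000298), as log2 fold changes in the authors' deposited transcript table. The first and the second of these lay on either side of the gene value of -2.12. For TRIB3 the deposited values were -1.70 for NM_021158.4 (Q = 0.00259) and -9.24 for NM_001301190.1 (Q = 0.000625), the former close to the gene value. The 2 values below -9 stood in the company of many others. An absolute log2 fold change of 6 or more was held by 823 of the 1040 called transcripts, 416 of them lower. These 2 values equal 0.129% of control for TRIB1 and 0.165% for TRIB3, beside gene values of 23.1% and 32.8%. Per-library values were not analysed, so how near 0 the estimate of either group lay is unknown. No transcript of CEBPB, NR4A1 or JUND was called. Among the listed mRNA genes 1.93% had a transcript called lower.

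Each of the 3 TRIB1 transcripts had a smaller Q value than the TRIB1 gene. Of the 108 called genes with a called transcript in the same direction, 41 had a transcript with a Q value below that of the gene, and TRIB3 was not one of them. TRIB1 was 1 of 2 called genes with at least 3 called transcripts in its own direction. Over all symbols, called as genes or not, 21 had 3 or more called transcripts in any direction. For TRIB1 the 3 include NM_025195.3, whose change was beyond 6 log2 units. The isoforms share much sequence. In GENCODE 29 the model matching NM_001282985.1 is 1332 nucleotides long and 91.1% of its 31-nucleotide words also occur in the 3635-nucleotide model of NM_025195.3. The matching used here kept 1 GENCODE model for each accession. By it both TRIB3 accessions had the same model, of 2499 nucleotides and 4 exons, and other matching models were not looked at. How the authors' counting divided reads between such isoforms was not tested.

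**Figure D2:**
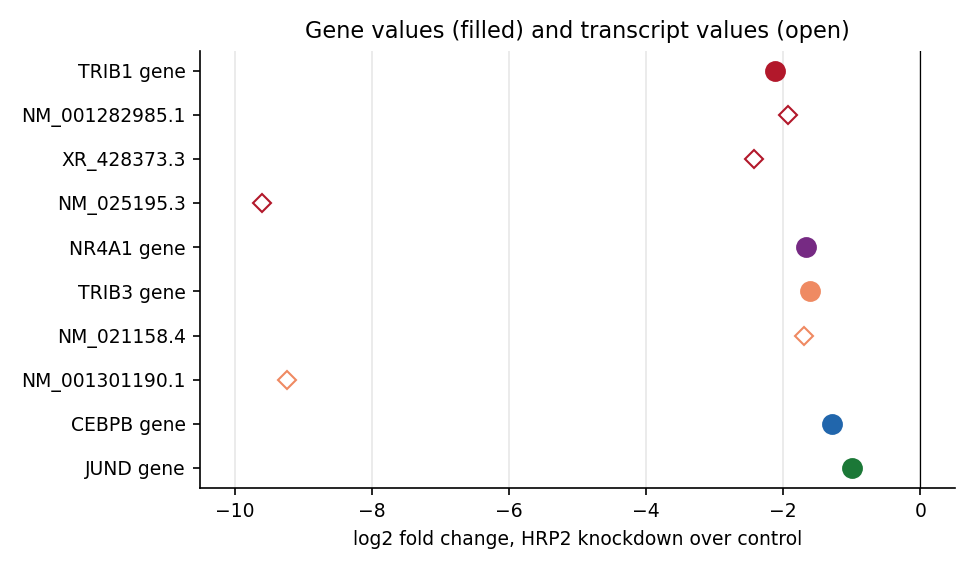
Log2 fold changes of HRP2 knockdown over control (x axis) for the 5 genes (filled circles) and for their called transcripts (open diamonds), from the authors' deposited tables. All 10 values are below 0. NM_025195.3 of TRIB1 at -9.60 and NM_001301190.1 of TRIB3 at -9.24 stand far from the other 3 transcripts, which lie between -2.43 and -1.70.

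TRIB3 lies on chromosome 20, and RefSeq (GRCh38.p14, a later build than the hg19 of the submitters' notes) gives it 3 neighbouring starts. The window around the most downstream start, 250 bases before to 50 bases after it, is shown because TRIB3 had the smallest Q value of the set. It spans chr20:381093-381392 on the plus strand, with GC boxes (GGGCGG, either strand) in capitals.
TRIB3: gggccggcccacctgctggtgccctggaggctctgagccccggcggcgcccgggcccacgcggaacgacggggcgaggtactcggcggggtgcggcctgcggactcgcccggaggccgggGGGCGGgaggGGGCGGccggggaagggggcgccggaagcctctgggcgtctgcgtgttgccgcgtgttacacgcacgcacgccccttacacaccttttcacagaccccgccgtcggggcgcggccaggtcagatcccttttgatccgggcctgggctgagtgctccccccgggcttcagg
The start is at 381343, and the other starts are at 381295 and 381306. The window had a GC content of 75.7% and held GC boxes at -130 and -120 from the start. The CRE, AP-1, C/EBP, C/EBP-ATF, NR4A, EGR, CArG and heat shock sites searched had no match in any of the 3 TRIB3 windows.

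CEBPB (gene ID 1051) encodes C/EBP beta, also known as NF-IL6, a leucine zipper factor that acts downstream of interleukin 6 and of the integrated stress response and that is known to support IRF4 expression in myeloma cells. Its log2 fold change was -1.28 (Q = 0.000168) in the authors' deposited table. It was the only called gene of 7 in the C/EBP list, beside 2.81% called of the listed mRNA genes. As CEBPB was chosen on this contrast, nothing is read from that count. CEBPA, CEBPD, CEBPE, CEBPG, CEBPZ and DDIT3, which encodes CHOP, were listed without being called. IRF4 was called lower, at 64.6% of control (-0.63 on the log2 scale, Q = 0.00323, authors' deposited table), while its called transcripts went both ways. A link between the values of CEBPB and IRF4 was not tested.

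CEBPB is an intronless gene, also on chromosome 20, and RefSeq gives it 2 starts. The window of the downstream start, chr20:50190580-50190879 (plus strand, GRCh38.p14, start at 50190830), is shown because it was 1 of only 2 windows of the set with a match to the CRE core. The capitals mark the CCAAT box, GC boxes, the CRE core (TGACG) and the TATA box (TATAAA), the last of which begins at -29.
CEBPB: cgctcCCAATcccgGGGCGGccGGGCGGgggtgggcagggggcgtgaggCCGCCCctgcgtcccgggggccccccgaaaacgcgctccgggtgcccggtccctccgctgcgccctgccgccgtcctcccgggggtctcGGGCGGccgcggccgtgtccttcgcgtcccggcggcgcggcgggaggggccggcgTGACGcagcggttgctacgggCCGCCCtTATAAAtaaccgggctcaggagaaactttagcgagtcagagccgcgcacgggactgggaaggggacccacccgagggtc
The CRE core lies at -57 to -53, between the GC boxes at -112 and -36. GC content was 76.7%, with 43 CpG dinucleotides in the 300 bases.

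NR4A1 (gene ID 3164) encodes the orphan nuclear receptor NUR77, an immediate early gene of antigen receptor signalling that can act in the nucleus as a transcription factor and at mitochondria through BCL2. Its log2 fold change was -1.67 (Q = 0.00167) in the authors' deposited table. The paralogues NR4A2 and NR4A3 were not called, and neither were EGR1 to EGR4 or their corepressors NAB1 and NAB2. Thus 1 of 9 genes of this list was called, beside 2.81% of the listed mRNA genes. That 1 was NR4A1, chosen on this contrast, so nothing is read from the count. The window of the downstream of the 2 RefSeq starts matched here, chr12:52037465-52037764 (plus strand, GRCh38.p14), is shown for contrast with the others. Its capitals mark a GC box at -196.
NR4A1: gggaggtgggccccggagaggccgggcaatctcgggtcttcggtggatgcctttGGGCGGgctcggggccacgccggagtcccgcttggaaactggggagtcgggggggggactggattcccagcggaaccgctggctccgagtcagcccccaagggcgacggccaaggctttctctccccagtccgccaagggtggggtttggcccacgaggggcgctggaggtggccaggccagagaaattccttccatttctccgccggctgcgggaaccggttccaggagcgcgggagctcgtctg
This window had a GC content of 69.7% and 25 CpG dinucleotides. The upstream NR4A1 window, at 53.3% and 5 CpG dinucleotides, was the least GC-rich of the 8 windows and had no match to any motif searched. The rest of this 36672-base gene was not searched, so sites at any start further downstream would have been missed.

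JUND (gene ID 3727) encodes the AP-1 subunit that, unlike FOS and JUN, is expressed in resting cells and can restrain proliferation. Its log2 fold change was -1.003 (Q = 3.49e-06) in the authors' deposited table. JUND and FOSL2, which encodes the FOS-related partner FRA2, were the called members of 17 AP-1 and partner genes, and both were lower. The shares over the listed mRNA genes were 2.81% called and 1.32% called lower. JUND was chosen on this contrast, so nothing is read from the count. FOSL2 stood at 41.2% of control (-1.28 on the log2 scale, Q = 0.000388, authors' deposited table), a larger deposited change than that of JUND. FOS, FOSB, FOSL1, JUN, JUNB, ATF3 and the BATF and small MAF genes were listed without being called.

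JUND, another intronless gene, has its RefSeq window at chr19:18281573-18281872 on the minus strand (GRCh38.p14, start at 18281622), printed in the direction of the gene. It is shown because it was the only window of the set with a full cyclic AMP response element (CRE, TGACGTCA), a site bound by CREB and by AP-1 and ATF dimers. The capitals mark the CRE, a further CRE core on the opposite strand, a CCAAT box and GC boxes.
JUND: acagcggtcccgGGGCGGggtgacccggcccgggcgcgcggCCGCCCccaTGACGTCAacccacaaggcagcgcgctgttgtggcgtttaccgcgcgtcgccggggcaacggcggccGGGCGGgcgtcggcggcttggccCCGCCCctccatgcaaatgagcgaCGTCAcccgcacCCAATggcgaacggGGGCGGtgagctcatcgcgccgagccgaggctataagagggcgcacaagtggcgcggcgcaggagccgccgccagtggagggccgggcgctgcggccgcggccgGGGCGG
The CRE lies at -200 to -193, the further core at -86 to -82 and the CCAAT box at -74. This window had 49 CpG dinucleotides, the highest count of the 8.

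Windows of 300 bases were matched for TRIB3, CEBPB, NR4A1 and JUND, 8 in all, and 12 motifs were searched on both strands. The counts below cover these windows only, and any other start of these genes was not searched. A full CRE occurred in 1 of the 4 genes (JUND), beside 2.25% of the 27305 genes with a window, and the CRE core, which every full CRE contains, in 2 of 4, beside 28.4%. The CCAAT box occurred in 2 of 4 (39.7% of all genes), the TATA box in 1 of 4 (14.0%) and the GC box in 4 of 4 (48.3%). In the 8 windows no match was found for the AP-1 site TGANTCA (9.37% of all genes) or the C/EBP site TTGCNNAA (12.7%). Nor was a match found for the NR4A site NBRE, spelled AAAGGTCA (1.49%), or the EGR site GCGNGGGCG (11.2%). The same held for the C/EBP-ATF response element TGATGNAA (4.46%), the CArG box bound by serum response factor (1.60%) and the heat shock element GAANNTTC (8.21%). By single windows of this length the shares were 1.85% for the CRE and 24.6% for its core. The median window GC content of the 4 genes was 76.2%, beside 58.3% over all genes, with 37.5 and 14 CpG dinucleotides.

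**Figure D3:**
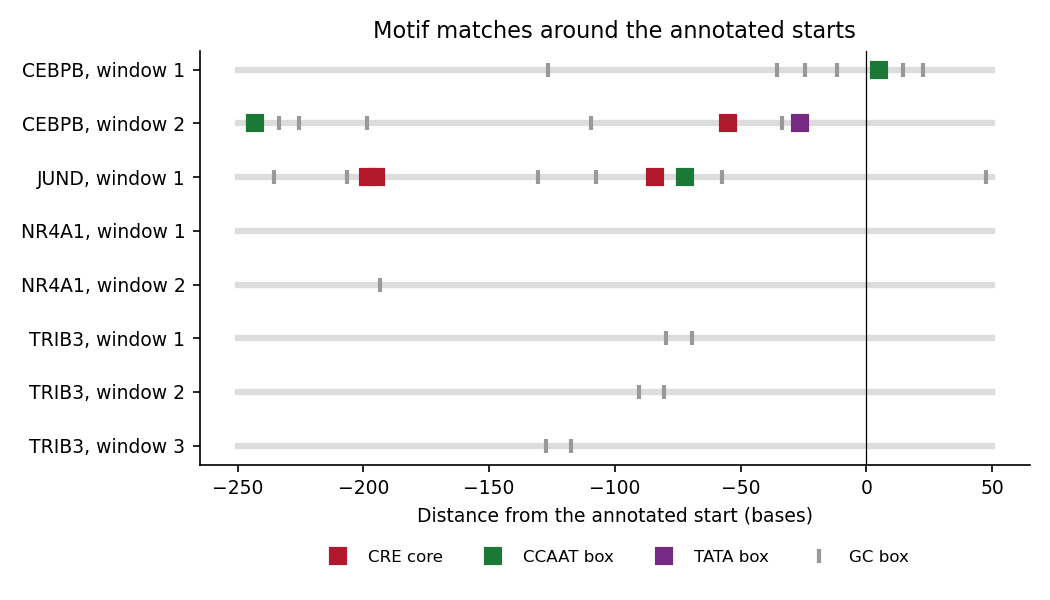
Positions of motif matches (either strand) in the 8 RefSeq windows of TRIB3, CEBPB, NR4A1 and JUND, by distance in bases from the annotated start (x axis), with 1 grey line for each window. The CRE core (TGACG) is seen in the window of JUND and in the downstream window of CEBPB, and GC boxes in 7 of the 8 windows. The 3 TRIB3 windows overlap, as do the 2 of CEBPB.

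Other immediate early genes went both ways. Of 58 genes on this list, which holds TRIB1, CEBPB, NR4A1 and JUND, 10 were called, 7 lower and 3 higher, beside 2.81% called and 1.32% called lower of the listed mRNA genes, and the median over the 10 called was -0.92 on the log2 scale. Of all called genes, 47.2% were lower. Without the 4 genes described here, 3 were lower and 3 higher. The lower ones were DUSP4, a MAP kinase phosphatase gene, at -1.24 (Q = 1.01e-06), ZFP36L1, which encodes an RNA-binding protein that destabilises AU-rich transcripts, at -0.83 (Q = 0.0184), and CSRNP1 at -0.81 (Q = 0.0493), as log2 fold changes in the authors' deposited table. The higher ones were BHLHE40, a transcriptional repressor of the circadian and hypoxia responses, at 1.30 (Q = 5.27e-08), and ID1 and ID2, inhibitors of basic helix-loop-helix factors, at 0.97 (Q = 0.00860) and 0.59 (Q = 0.0138). The remaining 48 genes, MYC, MCL1, DUSP1 and IER2 among them, have no value. This list was written with earlier results of these data known, so nothing is read from its counts.

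Of 34 targets or components of the ATF4 and CHOP arm, a list that holds TRIB3 and CEBPB, 5 were called, 4 lower and 1 higher, beside 2.81% called and 1.32% called lower of the listed mRNA genes. As TRIB3 and CEBPB were chosen on this contrast, their calls were fixed by that choice. The other 3 came from a list written with earlier results of these data known, so nothing is read from the count. Besides TRIB3 and CEBPB the lower ones were BBC3, which encodes the BH3-only protein PUMA, at -1.36 (Q = 0.0235), and TNFRSF10B, the gene of TRAIL receptor DR5, at -0.92 (Q = 0.000895). DDIT4, an inhibitor of mTORC1, was higher at 0.60 (Q = 0.000494; log2 fold changes from the authors' deposited table). The core members ATF4, DDIT3, ASNS and CHAC1 were not called as genes. At the transcript level NM_001178075.1 of ASNS, the asparagine synthetase gene, lay at -9.61 on the log2 scale in the table that the authors deposited. The tRNA synthetase genes CARS and WARS, not called as genes, had called transcripts as well. All were lower, at -1.76 and -9.83 for CARS and at -10.66 for WARS. Of the listed mRNA genes, 3.62% had a transcript called in either direction and 1.93% had 1 called lower. Apart from the -1.76 of CARS, these transcript values were beyond 6 log2 units, as were 823 of the 1040 called transcripts.

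Of 13 plasma cell factors and clients of COP1 or tribbles proteins, 4 were called and all 4 were lower, beside 2.81% called and 1.32% called lower of all listed mRNA genes. Beside IRF4 these were ETV1 at -1.06 (Q = 0.0114), ETV4 at -1.18 (Q = 0.00778) and ETV5 at -1.08 (Q = 0.000529), log2 fold changes from the authors' deposited table. ETV1, ETV4 and ETV5 form the PEA3 group of ETS factors, whose proteins are COP1 substrates and whose genes are induced by MAPK signalling. The part of COP1 or MAPK signalling in their values was not tested. The median over the 4 called genes was -1.07. Because the list was written with earlier results of these data known, nothing is read from its count. PRDM1, XBP1, PAX5 and BCL6 were among the 9 that were not called and have no value. IRF4 also had 1 transcript lower, NM_002460.3 at -1.04, and 1 higher, XM_006715090.2 at 1.93, in the deposited transcript table. Of 30 kinases and factors upstream of immediate early genes, such as SRF and CREB1, none was called as a gene by the authors' test. A called transcript was found for 7 of them, 6 higher and 1 lower, beside 3.62% of the listed mRNA genes with a called transcript in either direction, and the absolute log2 fold change of all 7 was 6 or more.

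**Figure D4:**
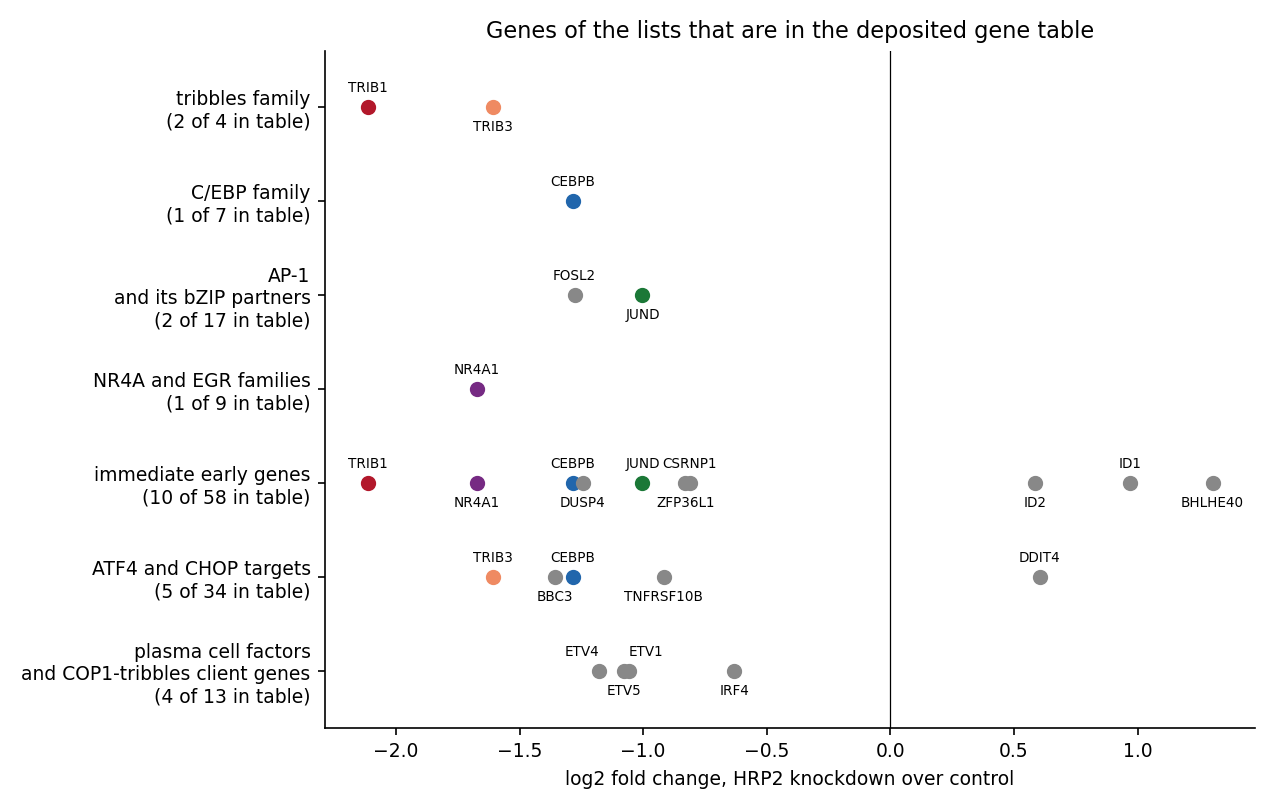
Log2 fold changes of HRP2 knockdown over control (x axis) for the genes of each list that are in the authors' deposited gene table, 1 row for each list, with TRIB1, TRIB3, CEBPB, NR4A1 and JUND coloured. Points right of 0 are ID2, ID1 and BHLHE40 in the immediate early row and DDIT4 in the ATF4 and CHOP row. All other points are left of 0, from TRIB1 at -2.12 to IRF4 at -0.63, and genes that were not called have no point.

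Base composition and gene structure were features that the choice of genes did not use. Median transcript GC content was 69.7% for JUND, 66.2% for CEBPB, 62.0% for NR4A1 and for TRIB3, and 50% for TRIB1. The medians were 57.4% for lower and 46.7% for higher called genes. JUND ranked 4th and CEBPB 20th of 677 called genes with a transcript model. All but TRIB1 were in the top quartile of GC content, where 144 of 170 called genes (84.7%) were lower, and the part of base composition in their values was not tested. JUND and CEBPB had 1 exon, which was true of 18 of the 677 genes (2.66%), whereas the longest coding models of TRIB1, TRIB3 and NR4A1 had 3, 4 and 8. The genes were compact, with a median span of 8046 bases in RefSeq beside 24692 for lower and 32683 for higher genes. NR4A1, at 36672 bases, was longer than either of those medians. AUUUA pentamers, which occur in the AU-rich elements of short-lived messengers, were counted in the longest coding model as ATTTA. There were 5 in NR4A1, 2 in JUND, 1 each in TRIB1 and CEBPB and none in TRIB3. Per kilobase their median was 0.51, close to the 0.59 of lower genes, and that of higher genes was 1.44.

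**Figure D5:**
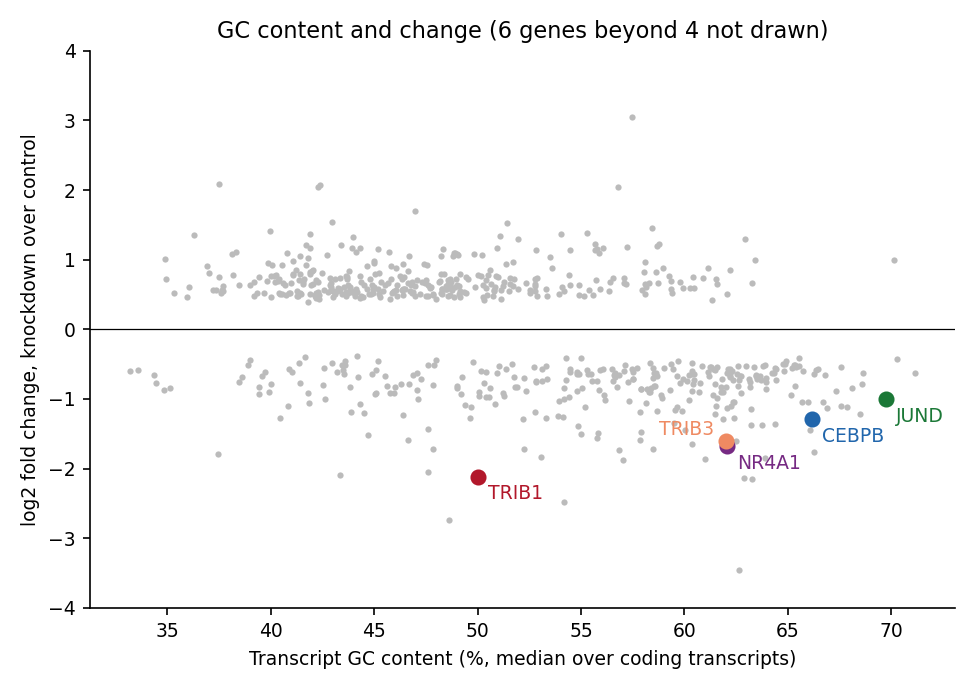
Log2 fold change of HRP2 knockdown over control (y axis) against median transcript GC content in percent (x axis) for called genes with a GENCODE 29 model, 6 of which lie beyond the y axis limits of -4 and 4. JUND, CEBPB, NR4A1 and TRIB3 lie between 62.0% and 69.7%, in the part of the plot where most points are below 0, and TRIB1 lies at 50%.

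Of the 10 flanking coding genes, 2 were called, and both were lower, beside 2.81% called and 1.32% called lower over the listed mRNA genes. LRATD2 beside TRIB1, listed under its older symbol FAM84B, was at -0.68 (Q = 0.0314) in the authors' deposited table. RBCK1, a linear ubiquitin ligase gene beside TRIB3, was at -0.52 (Q = 0.0396) in the same table. With only 2 calls, nothing is read from this count. The antisense RNA genes CEBPB-AS1 and NR4A1AS overlap CEBPB and NR4A1 in RefSeq. Whether counting used the strand is not given in the sources used here, so reads of such pairs cannot be told apart. Sequence shared with genes elsewhere was small. The percent of 31-nucleotide words found in a transcript of another gene was 5.69% for NR4A1, 1.27% for TRIB3, 1.09% for CEBPB, 0.0546% for JUND and 0 for TRIB1.

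The called genes most like each of the 5, by absolute difference in log2 fold change over the 1 comparison of 2 against 2 libraries, were as follows. NDUFA4L2 and FAM171B lay within 0.029 of TRIB1, ROBO3 and PLEK within 0.018 of TRIB3, and WNK4 and RNF103-CHMP3 within 0.045 of NR4A1. DAB2IP and DNAJB9 lay within 0.0043 of CEBPB, and SH3RF1 and CD28 within 0.0021 of JUND. With 1 value for each gene, such nearness describes size only.

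Because levels were not analysed, the labelled cell type could not be checked against its markers. Of 8 plasma cell markers, 3 were called, all lower (SDC1, TNFRSF17 and IRF4), although 1 transcript of IRF4 was called higher. The shares over the listed mRNA genes were 2.81% called and 1.32% called lower. XBP1, MZB1, JCHAIN, CD38 and PRDM1 were not called and have no value. Of 24 markers of T and NK, myeloid, erythroid and stromal or other cells, 23 of which were listed, none was called as a gene. PECAM1, an endothelial and myeloid marker on that list, had 1 transcript called higher, at 8.64 in the authors' deposited transcript table. The part of these markers in the values of TRIB1, TRIB3, CEBPB, NR4A1 and JUND was not tested.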

How the data were processed

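RNA sequencing values of LP-1 cells, 2 HRP2 knockdown and 2 control libraries, were used as deposited. The submitters' processing notes name BWA, Bowtie2, RSEM and the build hg19 without roles. For versions, annotation, normalization and the test, nothing is given in the sources used here. Per the file headers, the authors' tables give a log2 ratio of knockdown to control with its Q value for 684 genes and 1040 transcripts. The remaining deposited tables hold names only. The count model planned for per-library values was not run.

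Genes and lists (10) were chosen with earlier results of these data known. Named genes were the 5 genes, up to 8 called genes a list by Q value, the 2 nearest in log2 fold change and HDGFL2; CSRNP1, flanking genes, transcripts and uncalled genes were named after values were seen. Older symbols were matched by gene ID through RefSeq (681 of 684 IDs matched). Transcript features came from GENCODE 29 (677 genes) and promoter windows from RefSeq GRCh38.p14. Windows of called genes were not compared as groups, because 79.3% of lower genes, under the 80% required, had one. Motif searches were tested on simulated data. Python 3.11.15, pandas 2.3.3 and numpy 2.4.6 were used. Alternatives were a limit of 0.01 on Q, a change of 1 log2 unit or more, transcript values under 6, no readthrough genes, and shorter or single-strand motif searches.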

Additional observations from a re-analysis of the deposited data

How the results depend on the processing

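No paired analysis was possible because values per library were not among those analysed, and leaving out libraries, other normalizations and protein identity were not run for lack of such values or sequences. All 5 genes remained lower with a limit of 1 log2 unit on the change, and 4 of 5, all but TRIB1, at a Q value under 0.01. From transcripts with an absolute log2 fold change under 6, 2 of the 5 genes were called lower, TRIB1 and TRIB3, and 3 of their 5 transcripts were left. At a Q value under 0.01 the lower genes were 1 in the tribbles list and 4 in the immediate early list. With the limit of 1 log2 unit the higher genes were 1 in the immediate early list and 0 in the ATF4 and CHOP list. Smaller shifts in the immediate early list were to 5 lower genes at that limit and to 2 higher genes at a Q value under 0.01. At either limit, 3 lower genes were left in the ATF4 and CHOP list and 3 in the plasma cell and COP1 list. By those transcripts the lower genes were 0 in the C/EBP, AP-1 and NR4A lists, 2 in the immediate early list, 2 in the ATF4 and CHOP list and 1 in the plasma cell and COP1 list, and the higher genes were 1 in the immediate early list, 1 in the ATF4 and CHOP list (DDIT4) and 1 in the plasma cell and COP1 list. In the last, the lower and the higher gene were both IRF4, by different transcripts. These alternatives filter the deposited calls and repeat no test. No list holds a readthrough gene, so leaving such genes out could change nothing. Shorter windows or a single strand changed no motif count by more than 1.5 times. Depth is unknown, so the precision of each value is not known.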
